A study of Mus musculus with 40 samples.

Results

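The 8 genes described here encode ligands through which tumour or antigen-presenting cells restrain, or in part costimulate, immune cells. They are Cd274, Pdcd1lg2, Cd80, Cd86, Pvr, Lgals9, Cd276 and Cd47, chosen by symbol from 21347 genes measured in 4T1 cells cultured with or without T cells. Each was found once in the table. The 4T1 line comes from a mammary tumour of a BALB/c mouse, and the T cells came from spleens of C57Bl6 mice. Carcinoma cells were seeded at 10000 per cm2 and grown overnight, then received T cells at 80000 per cm2 with interleukin 2 at 30 U/mL (co-culture), or the same interleukin 2 without T cells (4T1 alone), for 24 h. The substrates were uncoated tissue culture polystyrene and wells that had received 250 µg/ml of a matrix protein (fibronectin, vitronectin, collagen I or collagen IV). T cells cultured alone were not analysed here.

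There were 18 co-cultures and 22 libraries of 4T1 alone from 5 experiments. Of the co-cultures, collagen I and vitronectin had 3 each, and collagen IV, fibronectin and uncoated plastic 4 each. Of 4T1 alone, both collagens and vitronectin had 4 libraries each, and fibronectin and uncoated plastic 5 each. Experiment 1 held uncoated plastic and fibronectin only, and experiment 3 held a single co-culture, on collagen IV. Loose and attached cells of a well were pooled, so a co-culture library is a mixture of carcinoma and T cell RNA. A level in such a mixture cannot tell fewer cells of a type from less RNA per cell. Depth was 18.95 to 47.73 mega-reads per library, apart from 1 library with 239.13 mega-reads, the collagen IV co-culture of experiment 5.

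Checkpoint ligands act by binding receptors on leukocytes. PD-L1 (Cd274) and PD-L2 (Pdcd1lg2) bind PD-1 and dampen T cell receptor signalling; PD-L1 is well known as a gene that interferon gamma induces through JAK kinases and interferon regulatory factors. CD80 and CD86 engage the costimulatory receptor CD28 and the inhibitory receptor CTLA-4. The poliovirus receptor CD155 (Pvr) binds TIGIT, CD96 and CD226. Galectin-9 (Lgals9) is a sugar-binding lectin described as a ligand of TIM-3, B7-H3 (Cd276) is a B7 family member whose receptor is not settled, and CD47 binds SIRP alpha on macrophages and restrains phagocytosis.

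The 5 experiments did not carry equal amounts of T cell RNA, and this moved with several values below. The summed level of 22 T cell genes, in reads per mega-read after the authors' scaling of depth (per M), was 1340 to 4066 in the co-cultures of experiment 4. It was 262 to 387 in experiment 1, 42.4 to 68.1 in experiment 2, 29.3 in experiment 3 and 25.4 to 56.7 in experiment 5. In 4T1 alone the sum was 2.94 to 6.14 per M. In 4T1 alone of experiment 4, 8 of the 22 genes were at 0 in all libraries (Cd3e, Cd3g, Cd4, Cd8a, Cd8b1, Cd2, Thy1 and Il7r), and the others had reads. The number at 0 in all 4T1 alone was 10 in experiment 1, 0 in experiment 2, 1 in experiment 3 and 2 in experiment 5. Summed carcinoma epithelial genes (14 keratin, junction and related genes) were 1930 to 2963 per M in co-cultures of experiment 4, against 3207 to 3806 per M in its 4T1 alone. Summed genes of the interferon gamma response (20 genes) were 472 to 2342 per M in co-cultures of experiment 4 and 173 to 261 per M in the other co-cultures, against 146 to 288 per M in all 4T1 alone. B cell genes (10 genes) summed to 46.2 to 142 per M in co-cultures of experiment 4 and 1.05 to 15 per M in other co-cultures, against 0.059 to 0.384 per M in 4T1 alone, where Ighd was at 0 throughout. Macrophage genes (6 of 8 listed were measured) summed to 10.1 to 17.0 per M in co-culture, against 8.51 to 14.7 per M in 4T1 alone. Dendritic cell genes (5 of 8 listed) summed to 52.9 to 161 per M in co-cultures of experiment 4 and 4.21 to 21.7 per M in other co-cultures, against 2.82 to 5.30 per M in 4T1 alone. Only 2 of these 5 genes reached 1 per M in at least 3 libraries. Of the 2, 1 passed as higher with T cells and 1 did not pass (limma). With the experiment as a block 1 passed as higher and 1 as lower. The labels also carry a library tag of unstated meaning. In experiment 4 all 5 libraries of 4T1 alone carried R3 and the co-cultures did not, so the tag and the T cells cannot be told apart there.

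Divided by the length of their exons in the GENCODE annotation of GRCm38, the 8 transcripts covered a wide range. In 4T1 alone, Cd276 averaged 29.2 per M per kb and Cd47 14.9 per M per kb. Pvr with 6.77 and Lgals9 with 6.66 per M per kb were neighbours that did not differ by more than their spread over libraries. Cd274 averaged 0.584 per M per kb, and Cd80, Pdcd1lg2 and Cd86 were at or below 0.0071 per M per kb. In the co-cultures of experiment 4, Cd274 averaged 5.15 per M per kb, against 0.674 per M per kb in 4T1 alone of that experiment, which brought it close to Pvr at 6.42 per M per kb in the same co-cultures. In that annotation Cd274 spans chr19:29367455-29388095 and Pdcd1lg2 chr19:29410919-29471161 on the forward strand, and Lgals9 chr11:78962974-78984946, Cd276 chr9:58524298-58555437 and Pvr chr7:19903578-19921160 on the reverse strand. Chromosome 16 holds Cd47 (chr16:49800533-49915010) and Cd80 (chr16:38455561-38496335) on the forward strand and Cd86 (chr16:36603869-36666081) on the reverse strand. A gene was tested if 3 or more libraries reached 1 per M, which held for 5 of the 8 (Cd274, Pvr, Lgals9, Cd276 and Cd47). Reads of the other 3 are given without a test over all genes.

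Of the 5 tested members, Cd274 and Lgals9 had the largest rises with T cells in experiment 4, and their promoters are shown because interferon-responsive genes often carry interferon regulatory factor (IRF) elements there. RefSeq (GRCm38.p6) held a promoter for 6 of the 8 members. The 250 bases upstream of the RefSeq start are given 5′ to 3′ on the strand of the gene, from the C57BL/6J reference and not from 4T1. RefSeq and GENCODE starts differ for some members. The windows of Cd80, Cd276 and Cd47 lay inside the GENCODE spans above, and that of Lgals9 overlapped the end of its span. Cd274 lies on the forward strand (chr19:29367188-29367437) upstream of its paralog Pdcd1lg2, and Lgals9 on the reverse strand (chr11:78984925-78985174). Capitals mark matches on either strand, in Cd274 to GAAAC, the core of IRF sites, and in Lgals9 to a pair of GAAA runs with any 2 bases between them.
Cd274: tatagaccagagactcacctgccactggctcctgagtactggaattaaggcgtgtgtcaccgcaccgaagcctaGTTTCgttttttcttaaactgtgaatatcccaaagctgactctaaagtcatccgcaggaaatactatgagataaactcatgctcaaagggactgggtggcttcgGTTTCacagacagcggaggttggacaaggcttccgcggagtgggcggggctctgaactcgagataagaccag
Lgals9: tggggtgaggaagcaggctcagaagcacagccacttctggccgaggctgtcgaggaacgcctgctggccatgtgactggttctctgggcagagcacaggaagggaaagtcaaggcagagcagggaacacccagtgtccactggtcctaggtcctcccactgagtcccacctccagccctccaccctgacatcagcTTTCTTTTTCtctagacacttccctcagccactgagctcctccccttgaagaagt
Cd274 held 2 matches to GAAAC, both on the opposite strand, 176 to 172 and 72 to 68 bases upstream of the start, and 39.7% of 32851 mouse promoters of this length held at least 1. Lgals9 held 1 match to the pair of GAAA runs, 55 to 46 bases upstream on the opposite strand, which 2.98% of promoters held. The letters TTCNNNGAA, the motif known as GAS, were in none of the 6 members' windows, against 7.02% of all promoters. The cyclic AMP response element (CRE, TGACG followed directly by TCA) was searched as well and was also in none of the 6, against 508 of the 32851 promoters. Pdcd1lg2 held 1 match to GAAAC, 75 to 71 bases upstream, and the Cd80, Cd276 and Cd47 windows held no match to any of the 4 motifs. No matches overlapped. The motifs were chosen with the T cell results known.

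Cd274, the gene for PD-L1, was higher with T cells chiefly in experiment 4. In that experiment the co-cultures held 48.1 per M on collagen IV, 19.9 on collagen I, 11.8 on fibronectin, 7.49 on uncoated plastic and 6.07 on vitronectin. The 4T1 alone of experiment 4 held 3.01, 2.599, 2.57, 1.82 and 2.21 per M in that order of substrates. The ratio of co-culture to 4T1 alone was 16.0, 7.66, 4.57, 4.12 and 2.75 in the same order.

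In the other 4 experiments the Cd274 level was low in both conditions. The 2 co-cultures of experiment 1 held 2.45 per M on fibronectin and 2.81 on uncoated plastic, against 1.82 and 2.03 per M in 4T1 alone. The 5 co-cultures of experiment 2 ranged from 1.93 to 2.87 per M (median 2.46), against 1.73 to 2.46 per M (median 2.20) in 4T1 alone. The single co-culture of experiment 3 held 1.63 per M, against 1.65 per M in the paired well. The 5 co-cultures of experiment 5 ranged from 2.18 to 2.81 per M (median 2.43), against 1.532 to 2.61 per M (median 2.18) in 4T1 alone. Co-culture was thus higher than 4T1 alone in 15 of 18 pairs. These were 2 of 2 pairs in experiment 1, 5 of 5 in experiment 2, 5 of 5 in experiment 4 and 3 of 5 in experiment 5, where 25.2%, 9.37%, 29.9% and 10.9% of all genes were higher in every pair. In experiment 2 the paired differences in log2(value + 1) were 0.06 to 0.18, although the ranges of the 2 conditions overlapped, as they did in experiment 5.

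The Cd274 mean was 6.93 ± 11.3 per M for the 18 co-cultures and 2.12 ± 0.41 per M for the 22 libraries of 4T1 alone (SD). The difference in log2(value + 1) was 0.73 ± 0.26 (SE; limma, Benjamini-Hochberg adjusted p = 0.0398). In edgeR on the recovered reads, with no 1 added to each value, the log2 difference was 1.51 (adjusted p = 0.00141), and with the experiment as a block 0.89 (adjusted p = 0.00959). In limma without experiment 4 it was 0.17 ± 0.06 (adjusted p = 0.165), and without experiment 1 or 3 the adjusted p was 0.0507 and 0.0777. Leaving out the co-culture of experiment 4 on collagen I, vitronectin, fibronectin or uncoated plastic gave adjusted p of 0.105, 0.0923, 0.0731 and 0.0718. Over the experiments the paired change averaged 0.54 ± 0.90 (SD, n = 5 experiments; exact two-sided sign-flip p = 0.125, adjusted over the 8 members 0.333).

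**Figure D1:**
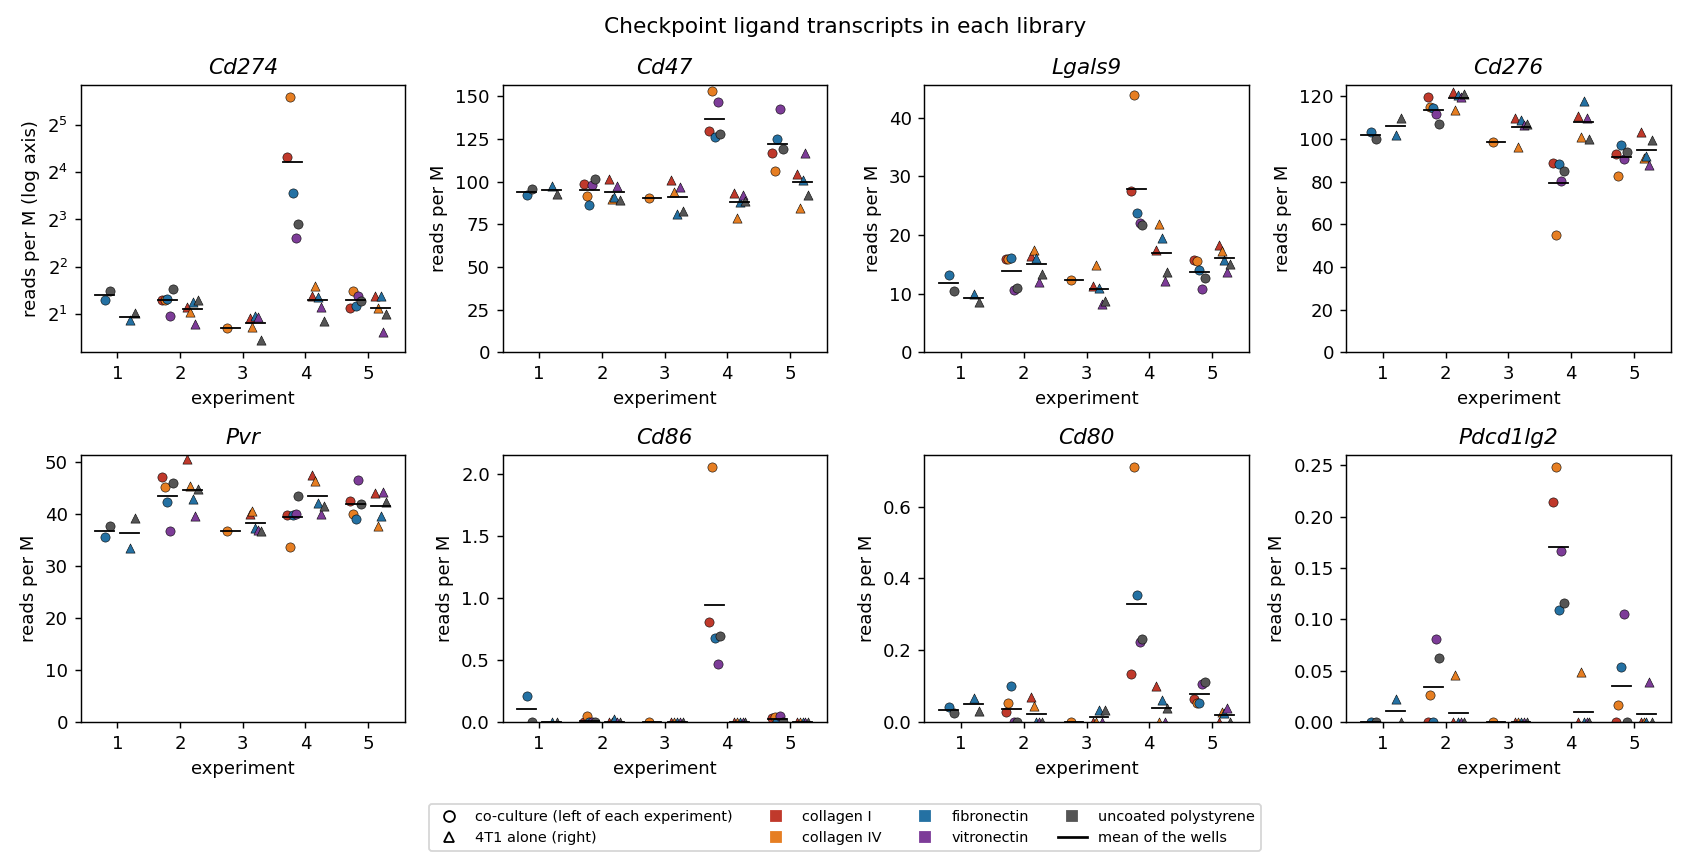
Level of each checkpoint ligand transcript in every library, in reads per M (log axis for Cd274), by experiment, with co-culture (circles) left of 4T1 alone (triangles), colour for substrate and a bar for the mean of the wells. Cd274 and Cd86 stand apart in the co-cultures of experiment 4, while Pvr lies between 33.5 and 50.5 in all 40 libraries. Cd80 stands apart less clearly, with 0.134 (5 reads) on collagen I there against 0.100 (3 reads) in the paired well.

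In a model that gave each experiment its own T cell effect, chosen after seeing the data, the Cd274 difference was 2.14 ± 0.24 (SE) in experiment 4 (limma adjusted p = 2.46e-09), where 64.3% of all genes passed. In experiments 1, 2, 3 and 5 it was 0.31, 0.12, −0.34 and 0.12, and none passed (adjusted p = 0.797 or more in each), where 3.17%, 1.35%, 0.646% and 4.37% of genes passed. The value for experiment 3 also draws on substrate terms, since its own pair differed by −0.01. The T cell effect differed between experiments for Cd274 (adjusted p = 1.19e-05), as it did for 45.1% of genes. Wells of an experiment are not independent repeats of it, so these p-values measure only the spread between wells.

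Within experiment 4 the order of the 5 co-cultures by Cd274 was collagen IV, collagen I, fibronectin, uncoated plastic and vitronectin. Their summed interferon gamma response genes had the same order, from 2342 to 472 per M. Summed T cell genes were highest on collagen IV at 4066 per M and 1340 to 1599 per M on the other 4 substrates. Ifng itself was at 0.111 to 0.567 per M in these co-cultures and at 0 in 4T1 alone of that experiment. The part of T cell transcripts in the Cd274 level was not tested. In experiment 1 the fibronectin co-culture had 387 per M of T cell genes, 226 per M of interferon gamma response genes and 2.45 per M of Cd274. The co-culture on uncoated plastic had 262, 206 and 2.81 per M of these.

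**Figure D2:**
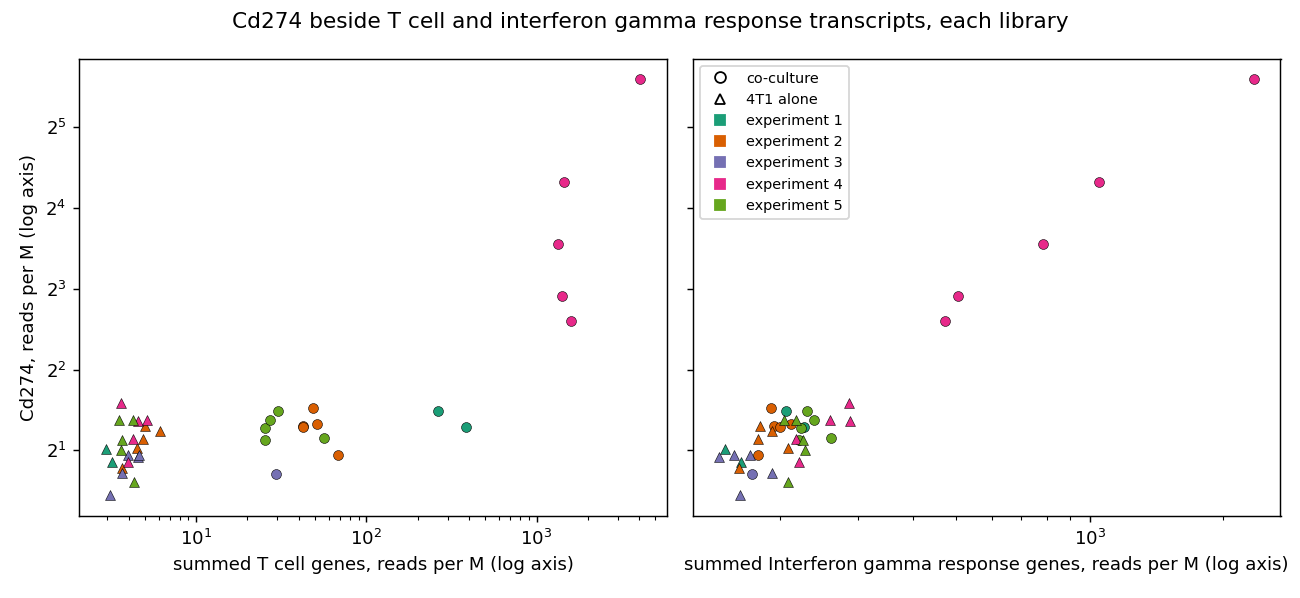
Cd274 against the summed T cell genes (left) and the summed interferon gamma response genes (right) in each library, all in reads per M on log axes, with circles for co-culture, triangles for 4T1 alone and colour for experiment. The 5 co-cultures of experiment 4 lie above and to the right of the other 35 libraries in both panels, and the 2 co-cultures of experiment 1 have 262 and 387 per M of T cell genes with Cd274 below 3 per M.

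The other ligand of PD-1, Pdcd1lg2, was close to the detection limit. It had 45 reads over the 18 co-cultures, 29 of them in experiment 4, against 5 reads over the 22 libraries of 4T1 alone. The co-cultures of experiment 4 held 0.109 to 0.248 per M with reads in 5 of 5 libraries, against 1 read in 1 of 5 libraries of 4T1 alone. At 0 reads a level of up to 3 reads cannot be told from none, and by library this limit was 0.0124 to 0.158 per M.

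The B7 ligands of CD28 and CTLA-4 were also low, and the co-cultures of experiment 4 held 154 of the 179 co-culture reads of Cd86 and 54 of the 88 of Cd80. Cd86 held 0.805 per M on collagen I, 2.06 per M on collagen IV, 0.680 on fibronectin, 0.471 on vitronectin and 0.697 on uncoated plastic there, against 0 reads in the 5 libraries of 4T1 alone. In the other 13 co-cultures it had 25 reads in 5 libraries. Of these, 10 were on fibronectin in experiment 1 (0.213 per M) and 10 on collagen IV in experiment 5, the deepest library (0.041 per M). That library also held 13 reads of Cd80. Over all 22 libraries of 4T1 alone Cd86 had 1 read. Cd80 held 0.134, 0.709, 0.354, 0.222 and 0.232 per M on the same substrates in co-cultures of experiment 4, against 6 reads over 4T1 alone of that experiment. In 4T1 alone as a whole Cd80 had 20 reads in 12 of 22 libraries. CD86 and CD80 are also made by dendritic cells, B cells and activated T cells. The B cell and T cell sums were highest in co-cultures of experiment 4 as well. So was the dendritic cell sum, but only 2 of the 8 listed genes were tested, of which 1 passed as higher. That sum peaked in the collagen IV co-culture, which also had the highest T cell sum. It therefore cannot show whether dendritic cells were present. The part of these cell types in the Cd86 and Cd80 reads was not tested.

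Cd47, which restrains phagocytosis, was higher with T cells in experiments 4 and 5. In experiment 4 the co-cultures held 130 per M on collagen I, 153 per M on collagen IV, 126 on fibronectin, 146 on vitronectin and 128 on uncoated plastic, against 93.1, 78.8, 88.3, 92.4 and 88.9 per M in 4T1 alone. In experiment 5 they held 117, 106, 125, 142 and 119 per M, against 105, 84.4, 101, 117 and 92.0 per M. Co-culture was higher in all 10 pairs of these experiments, although the ranges of the conditions overlapped in experiment 5. The shares of all genes higher in every pair of these experiments are given above with Cd274.

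In experiments 1, 2 and 3 the Cd47 co-cultures ranged from 86.2 to 102 per M, against 81.1 to 102 per M in 4T1 alone. The Cd47 mean was 114 ± 21.0 per M for all co-cultures and 93.4 ± 8.56 per M for all 4T1 alone (SD). The log2 difference was 0.27 ± 0.06 (SE; limma adjusted p = 0.00593), and the gene was higher in 14 of 18 pairs. Without experiment 4 the difference was 0.14 ± 0.06 (adjusted p = 0.235). By experiment the Cd47 difference was 0.62 ± 0.06 in experiment 4 (adjusted p = 2.69e-10) and 0.29 ± 0.06 in experiment 5 (adjusted p = 0.00775), where 4.37% of genes passed. It was −0.02 in experiment 1 and 0.02 in experiment 2. In experiment 3 the only pair held 90.7 per M in co-culture, against 94.1 per M in 4T1 alone, a difference of −0.05 that turned to 0.07 in the model, which also draws on substrate terms. The difference between experiments passed (adjusted p = 6.34e-06).

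The experiment 5 co-cultures carried few T cell transcripts, with a T cell sum of 25.4 to 56.7 per M. Of the 5 tested members, Cd47 was the only one to pass in experiment 5. Divided by the summed epithelial genes, a ratio chosen after seeing the data, Cd47 was 37.4 ± 2.91 per 1000 in co-cultures of experiment 5, against 29.1 ± 3.34 per 1000 in 4T1 alone (SD, n = 5 each). In experiment 4 it was 54.2 ± 14.5 per 1000 in co-cultures, against 25.3 ± 1.84 per 1000 in 4T1 alone (SD, n = 5 each). T cells also make CD47, and the part of their RNA in these values was not tested.

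Lgals9, the gene for galectin-9, was higher with T cells in experiment 4 but not in experiments 2, 3 and 5. In experiment 4 the co-cultures held 27.5 per M on collagen I, 43.8 per M on collagen IV, 23.8 on fibronectin, 22.04 on vitronectin and 21.7 on uncoated plastic, against 17.4, 21.8, 19.5, 12.1 and 13.7 per M in 4T1 alone. Every co-culture was above its paired well, by a ratio of 1.22 to 2.01, although the lowest co-cultures and the highest 4T1 alone met near 21.8 per M. In experiment 5 every pair went the other way, with 10.8 to 15.7 per M in co-culture and 13.8 to 18.3 per M in 4T1 alone. The part of T cell RNA in the Lgals9 level of experiment 4 was not tested.

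The Lgals9 difference was 0.66 ± 0.08 (SE) in experiment 4 (limma adjusted p = 2.12e-08) and −0.21 ± 0.08 in experiment 5 (adjusted p = 0.124). It was 0.32 ± 0.13 in experiment 1 (adjusted p = 0.396), where both pairs were higher in co-culture, and the difference between experiments passed (adjusted p = 8.40e-07). The Lgals9 mean was 17.4 ± 8.21 per M for all co-cultures and 14.2 ± 3.71 per M for all 4T1 alone (SD), and this difference of 0.21 ± 0.13 did not pass (adjusted p = 0.239).

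Cd276, the gene for B7-H3, was lower in the co-cultures of experiment 4. They held 88.6 per M on collagen I, 55.0 per M on collagen IV, 88.4 on fibronectin, 80.4 on vitronectin and 85.0 on uncoated plastic, against 111, 101, 118, 110 and 99.9 per M in 4T1 alone. The difference was −0.45 ± 0.06 (SE, limma adjusted p = 1.97e-07), while in the other experiments it was between −0.07 and 0.04. Divided by the summed epithelial genes, a ratio chosen after seeing the data, Cd276 was 30.5 ± 2.43 per 1000 in co-cultures of experiment 4. In 4T1 alone of that experiment it was 30.9 ± 1.99 per 1000 (SD, n = 5 each). The part of the mixture with T cell RNA in the lower Cd276 level was not tested.

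The Cd276 mean was 95.8 ± 15.5 per M for all co-cultures and 107 ± 10.1 per M for all 4T1 alone (SD), a difference of −0.17 ± 0.06 (adjusted p = 0.0579). With the experiment as a block it was −0.16 ± 0.05 and passed (adjusted p = 0.00848). Scaled to the epithelial genes it was 0.03 ± 0.05, which turns the direction (adjusted p = 0.589).

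Pvr, the gene for CD155, had the smallest difference with T cells of the tested members. In experiment 4 the co-cultures held 39.8 per M on collagen I, 33.6 per M on collagen IV, 39.8 on fibronectin, 39.9 on vitronectin and 43.3 on uncoated plastic, against 47.5, 46.3, 42.0, 39.95 and 41.5 per M in 4T1 alone. The 2 conditions overlapped, and uncoated plastic went the other way. The difference in experiment 4 was −0.14 ± 0.06 (limma adjusted p = 0.0454), where 64.3% of genes passed, and the difference between experiments did not pass (adjusted p = 0.538). The Pvr mean was 40.7 ± 3.88 per M for all co-cultures and 41.4 ± 4.03 per M for all 4T1 alone (SD), a difference of −0.03 ± 0.04 (adjusted p = 0.670) that turns positive when libraries are scaled to the epithelial genes (0.17) or experiment 4 is left out (0.02).

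Averaged over substrates, 2 of the 5 tested members thus passed, Cd274 and Cd47, where 25.2% of all genes passed and 13.1% passed as higher. With the experiment as a block 3 of 5 passed, Cd276 being the third, where 45.8% of all genes passed. Without experiment 4 none of the 5 passed in limma, where 2.92% of all genes did. On single substrates no member passed on any of the 5 substrates in limma or in edgeR on the recovered reads. At an unadjusted p under 0.05, 3 of the 25 limma tests passed, for Cd47 on collagen IV, vitronectin and uncoated plastic. In edgeR 5 of 25 tests did, these 3 and Cd274 on both collagens. No edgeR share of all genes is given beside that count, so it cannot be read as particular to the members. The limma share of all genes passing after adjustment was 0% on each substrate. At the unadjusted threshold it was 1.08% on collagen I, 9.82% for collagen IV, 2.4% on fibronectin, 9.58% on vitronectin and 10.3% on uncoated plastic.

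**Figure D3:**
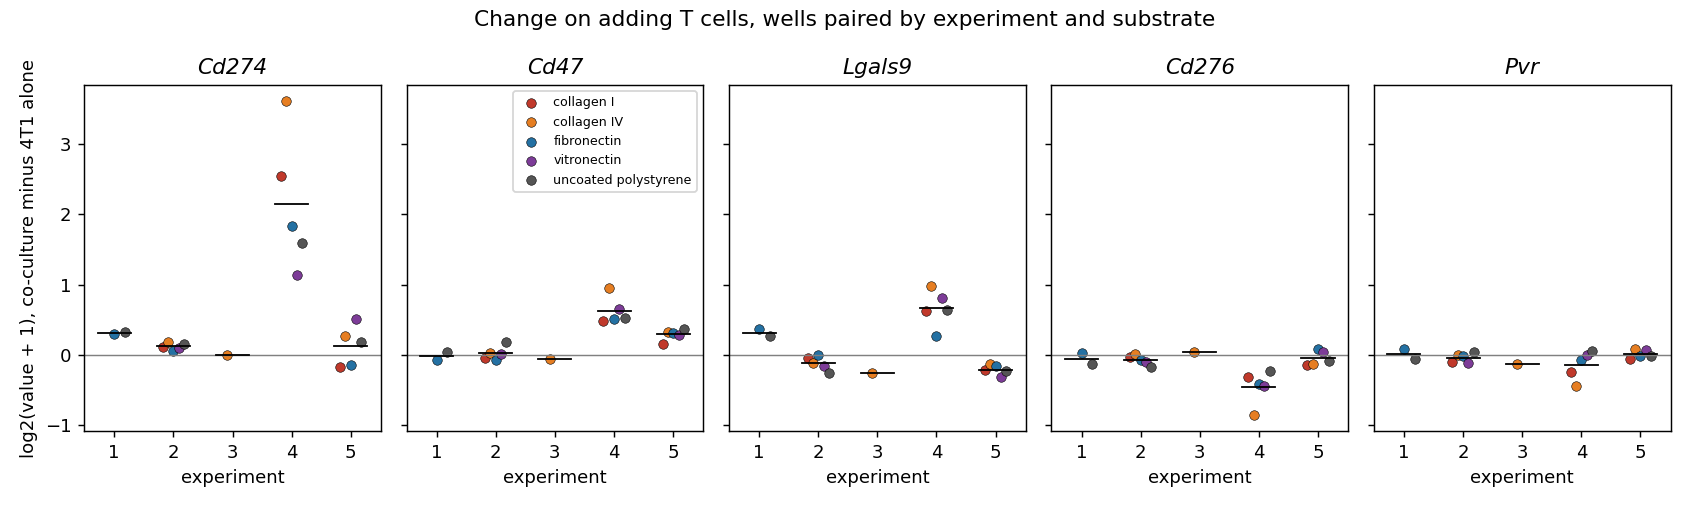
Change on adding T cells, as the difference in log2(value + 1) between a co-culture and its paired well of 4T1 alone, for the 5 tested members by experiment, with points for pairs coloured by substrate and a bar for the mean. In experiment 4 the means are 2.14 for Cd274, 0.62 for Cd47, 0.66 for Lgals9, −0.45 for Cd276 and −0.14 for Pvr, and Cd47 alone stays clearly above 0 in experiment 5.

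Between coated and uncoated wells of 4T1 alone, Lgals9 differed in the same direction in every experiment for each coat. On collagen I it held 16.4, 11.3, 17.4 and 18.3 per M in experiments 2 to 5. On collagen IV it held 17.4, 14.9, 21.8 and 17.3 per M in those experiments. On fibronectin it held 10.0, 16.2, 10.9, 19.5 and 15.8 per M in experiments 1 to 5. On vitronectin it held 12.0, 8.27, 12.1 and 13.8 per M in experiments 2 to 5, and on uncoated plastic 8.61, 13.4, 8.72, 13.7 and 15.2 per M in experiments 1 to 5. Within every experiment collagen I, collagen IV and fibronectin were above uncoated plastic, and vitronectin was below it. The library tag of both collagens differed from that of uncoated plastic in experiments 2, 3 and 5. That of fibronectin differed in experiments 2 and 5, and that of vitronectin in experiment 2. In those pairs the tag and the coat cannot be told apart, and a block for the experiment does not take this out. In experiment 4 all carried R3.

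Paired by experiment, the Lgals9 difference from uncoated plastic was 0.30 ± 0.04 on collagen I and 0.47 ± 0.25 on collagen IV (SD, n = 4 pairs each). It was 0.26 ± 0.16 on fibronectin (SD, n = 5 pairs) and −0.12 ± 0.04 on vitronectin (SD, n = 4 pairs). Of all genes tested, 14% were higher in every pair on collagen I, 10.1% on collagen IV and 8.41% on fibronectin, and 7.66% were lower in every pair on vitronectin. The exact sign-flip p was 0.125 for each coat with 4 pairs, the smallest that 4 pairs allow, and 0.063 for fibronectin, the smallest that 5 allow.

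In the model over all 40 libraries without a term for the experiment, no member passed for any coat in 4T1 alone, where 0.0952% of genes passed for collagen I, 0.0068% for collagen IV and 0% for fibronectin and vitronectin. Of those 20 member tests 1 had an unadjusted p under 0.05 in limma (Lgals9 on collagen IV), and edgeR on the recovered reads had none. At that threshold 3.58%, 2.83%, 2.21% and 1.12% of all genes passed on collagen I, collagen IV, fibronectin and vitronectin. The coat calls below come from a fit chosen after seeing the data, 1 of 4 limma fits of this comparison. The block over all 40 libraries and the fit to 22 libraries without a block called no member (Lgals9 without the block: adjusted p = 0.667 on collagen I and 0.577 on collagen IV). With the experiment as a block and the 22 wells without T cells as the only libraries, Lgals9 rose by 0.46 ± 0.08 (SE) on collagen IV (limma adjusted p = 0.00741, 1.43% of genes passing) and by 0.29 ± 0.08 on collagen I (adjusted p = 0.0492, 3.14% of genes passing). The difference of 0.26 ± 0.07 on fibronectin (adjusted p = 0.0825, 0.877% passing) and of −0.13 ± 0.08 on vitronectin (adjusted p = 0.617, 0.0136% passing) did not pass. The collagen IV call held in each of 22 fits with 1 library left out (adjusted p 0.00529 to 0.0465) but not without experiment 3 (0.209) or experiment 4 (0.109). The collagen I call held in 4 of 22 and in none of the 5 fits with an experiment left out.

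An F test over the 5 substrates in the same blocked fit passed for Lgals9 (limma adjusted p = 0.000812) and Cd47 (0.0418), 2 of the 5 tested members, where 9.82% of all genes passed. Neither passed with the block over all 40 libraries (limma adjusted p = 0.169 for Lgals9 and 0.774 for Cd47), where 2.69% of genes did, nor without a block. Of the variance of log2 values in 4T1 alone, 33.3% for Lgals9 and 48.0% for Cd47 lay between substrates after the experiment was taken out, against 13.1% for Cd276, 21.9% for Cd274 and 22.6% for Pvr. Between experiments lay 71.1% of the variance for Cd276, 60.7% for Lgals9, 52.4% for Pvr, 36.6% for Cd274 and 22.6% for Cd47.

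For Cd47 in 4T1 alone the order of substrates was another one. It held 102, 101, 93.1 and 105 per M on collagen I and 97.3, 97.0, 92.4 and 117 per M on vitronectin in experiments 2 to 5. On collagen IV it held 89.8, 94.1, 78.8 and 84.4 per M, on fibronectin 97.2, 90.9, 81.1, 88.3 and 101 per M in experiments 1 to 5, and on uncoated plastic 92.7, 89.0, 82.6, 88.9 and 92.0 per M. Collagen I and vitronectin were above uncoated plastic in 4 of 4 pairs each, by 0.18 ± 0.09 and 0.19 ± 0.12 (SD), where 14% and 6.92% of genes were higher in every pair. Neither coat passed for Cd47 in the blocked fit (adjusted p = 0.0974 and 0.337). The limit from the library tag given above for Lgals9 holds for these pairs as well.

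**Figure D4:**
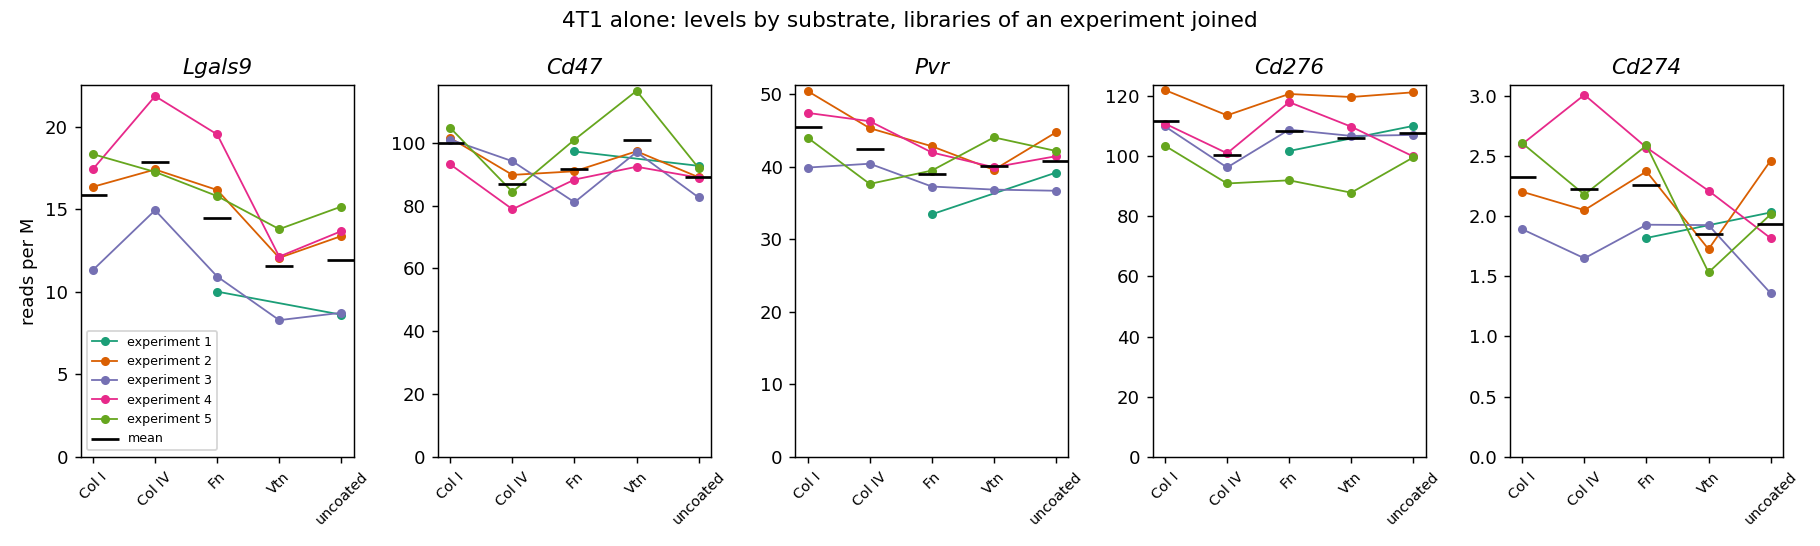
Level of the 5 tested members in 4T1 alone on each substrate (Col I and Col IV, collagens; Fn, fibronectin; Vtn, vitronectin), in reads per M, with the libraries of an experiment joined by a line (experiment 1 has only 2 substrates) and a bar for the mean. Lgals9 is above uncoated plastic on both collagens and fibronectin in every experiment and below it on vitronectin, and Cd47 is above it on collagen I and vitronectin.

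Cd274 in 4T1 alone averaged 2.32 ± 0.35 per M on collagen I, 2.22 ± 0.57 per M on collagen IV, 2.26 ± 0.36 on fibronectin, 1.85 ± 0.29 on vitronectin and 1.94 ± 0.40 on uncoated plastic (SD, n = 4, 4, 5, 4 and 5). The substrates overlapped, and the F test with the block did not pass (adjusted p = 0.335). Pvr averaged 39.0 to 45.5 per M and was above uncoated plastic in 4 of 4 pairs on collagen I (0.13 ± 0.06, SD), where 14% of genes were higher in every pair. Cd276 averaged 100 to 112 per M over the substrates and was also higher in 4 of 4 pairs on collagen I (0.06 ± 0.06, SD). Neither gene passed the F test (adjusted p = 0.165 for Pvr and 0.189 for Cd276).

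In co-culture no member passed for a coat, neither over all 40 libraries nor in a blocked fit to the 18 co-cultures. For all genes 0.0068%, 0.0136%, 0% and 0% passed on collagen I, collagen IV, fibronectin and vitronectin over all 40 libraries. At an unadjusted p under 0.05 none of 20 member tests passed in limma, against 2.19%, 3.33%, 0.741% and 0.782% of all genes in limma. In edgeR 1 did, for Cd274 on collagen IV, a count given without an edgeR share of all genes. In the pairs Lgals9 was above uncoated plastic in 3 of 3 pairs on collagen I (0.36 ± 0.10), 3 of 3 on collagen IV (0.58 ± 0.36) and 4 of 4 on fibronectin (0.27 ± 0.18, SD), where 18.7%, 13.5% and 11.6% of genes were higher in every pair. On vitronectin it was above in 1 pair and below in 2 (−0.08 ± 0.12, SD). Pvr was lower in 3 of 3 pairs on collagen IV (−0.15 ± 0.18) and 4 of 4 on fibronectin (−0.10 ± 0.02, SD), where 9.86% and 8.69% of genes were lower in every pair, and Cd276 was higher in 4 of 4 on fibronectin (0.06 ± 0.02, SD). The difference in T cell effect between a coat and uncoated plastic passed for no member in limma or edgeR, with 0 of 20 tests under an unadjusted p of 0.05 in either. In limma 0% of genes passed after adjustment for each coat, and 0.85%, 1.25%, 0.721% and 0.279% before it.

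The receptors of these ligands were higher in co-culture for the most part. Added T cells bring in RNA of the receptors they make, and Cd28 is also 1 of the 22 T cell genes summed above. A rise here therefore cannot tell a change within cells from the mixture, and the part of T cell RNA was not tested. Of 10 listed receptors 6 rose in co-culture and none fell, with a median log2 difference of 1.06, against −0.01 over all genes and 13.1% of genes passing as higher. With the experiment as a block 6 rose and 1 fell, Tigit, by 0.07 ± 0.03 (SE; limma adjusted p = 0.0193), where 22.4% of genes passed as higher and 23.4% as lower. Without experiment 4 the same 6 passed, with a median of 0.31. Cd28, the costimulatory receptor of CD80 and CD86, rose by 2.23 ± 0.51 (SE; limma adjusted p = 0.00573). It averaged 50.9 per M in co-cultures of experiment 4, against 0.0887 per M in 4T1 alone of that experiment. Cd96, a receptor of CD155, rose by 1.80, and Cd226, its activating counterpart, by 1.23. Ctla4, the inhibitory receptor of CD80 and CD86, rose by 1.23, and Treml2, described in mice as a B7-H3 receptor, by 1.24. Pdcd1, the gene for PD-1, was the sixth and rose by 0.90; it held 3.40 to 10.2 per M in co-cultures of experiment 4 and was at 0 in all 22 libraries of 4T1 alone.

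The 4 receptors that did not pass without the block were detected in all libraries of both conditions. Tigit held 27.3 to 39.0 per M in co-culture, against 28.6 to 40.7 per M in 4T1 alone. Sirpa, the CD47 receptor of myeloid cells, held 14.5 to 24.2 per M, against 18.8 to 25.1 per M. Havcr2, the gene for TIM-3, held 1.13 to 4.22 per M, against 1.71 to 4.90 per M. Rgmb, a PD-L2 partner, held 13.2 to 24.0 per M, against 13.95 to 24.4 per M.

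Among 27 other checkpoint and costimulatory ligands 24 were in the table and 19 were tested, of which 6 rose and 4 fell, with a median difference of 0.02. Of all 14701 genes tested 1922 rose and 1788 fell. With the block 6 of the ligands rose and 5 fell, where 3287 of all genes rose and 3439 fell. Without experiment 4, 2 ligands rose (Vsir and Cd48) and none fell, where 374 of the 430 genes passing were higher. Scaled to the epithelial genes the same 2 rose and none fell. With that scaling all 825 genes passing were higher, so the lack of falls is not particular to these ligands. Vsir, the gene for VISTA, held 48.2 to 161 per M in co-cultures of experiment 4, against 2.51 to 2.98 per M in 4T1 alone of that experiment, and rose by 1.85 ± 0.42 overall (SE; limma adjusted p = 0.00522). Cd48, a leukocyte ligand of CD244, rose by 1.48, Tnfrsf14, the herpesvirus entry mediator that binds BTLA, by 0.79, the class I-like gene H2-Q7 by 0.72 and the death ligand gene Fasl by 0.43. Cd200 was the sixth to rise (0.35). The Tnfrsf14 call was lost in 14 of the alternative fits and held in 42. Cd48 was at 0 in 4T1 alone of experiment 4, and VISTA, CD48 and FasL are well known on leukocytes; the part of T cell RNA in these rises was not tested.

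The 4 ligands that fell include 2 galectins. The mean of Lgals1, the gene for galectin-1, was 3558 ± 669 per M for all co-cultures and 4208 ± 340 per M for all 4T1 alone (SD), a difference of −0.26 ± 0.07 (SE; limma adjusted p = 0.0123). Nectin2, a ligand of CD226 and of TIGIT, differed by −0.23, Lgals3, the gene for galectin-3, by −0.17 and Hmgb1, a nuclear protein that binds TIM-3 when released, by −0.10. In the alternative fits the Lgals3 call was lost with its sign kept in 33 and held in 21. That of Hmgb1 was lost so in 34 and held in 20. Scaled to the epithelial genes, which moves the median of all genes to 0.17, the values of Lgals3 and Hmgb1 turned to 0.03 and 0.10.

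Of 21 regulators of PD-L1 transcription 6 rose and 1 fell, with a median of 0.19. Of all 14701 genes tested 1922 rose and 1788 fell, with a median of −0.01. With the experiment as a block 11 regulators rose and 4 fell, where 3287 of all genes rose and 3439 fell. Without experiment 4 Ifngr1 was the 1 regulator that rose and none fell, where 374 of the 430 genes passing were higher. Among those that rose, the interferon gamma receptor chain gene Ifngr1 did so by 0.86 ± 0.23 (SE, limma adjusted p = 0.0121). The feedback inhibitor gene Socs1 rose by 0.59, the kinase gene Jak1 by 0.47 and both Jak2 and Irf2 by 0.25. The Socs1 call was lost in 26 of the alternative fits and held in 30. Ifngr1 held 127 to 324 per M in co-cultures of experiment 4, against 30.5 to 33.9 per M in 4T1 alone of that experiment, and Irf1, a main activator of the PD-L1 gene, 88.0 to 228 per M against 80.2 to 102 per M. Myc, which has been described to bind the PD-L1 promoter, fell by 0.25 ± 0.04 (adjusted p = 0.000833). Of 13 genes that handle PD-L1 or CD47 protein 3 rose and none fell, with a median of 0.00. With the block 4 rose and 1 fell, and without experiment 4 none passed in limma. The 3 were Cmtm6, which keeps PD-L1 at the cell surface (0.17), the kinase gene Gsk3b (0.14) and the palmitoyltransferase gene Zdhhc9 (0.13). The Cmtm6 call was lost in 39 of the alternative fits and held in 17. That of Gsk3b was lost in 1 and that of Zdhhc9 in 2. The all-gene counts above apply to this list as well. Co-culture libraries also hold T cell RNA, and its part in the values of both lists was not tested.

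Among 10924 genes averaging at least 5 per M in 4T1 alone, those whose paired changes were most like that of Cd274 included Samhd1 (r = 0.983) and Dtx3l (0.977) over 18 pairs. For Lgals9 they were Sp100 (0.965), Txnip (0.964) and Dgka (0.962). For Cd276 they were Ackr3 (0.960), Snx9 (0.956) and Nfe2l1 (0.951), for Cd47 Tgoln1 (0.964), Top2b (0.960) and Atp11b (0.960), and for Pvr Pi4k2b (0.856), Gm13387 (0.838) and Tomm20 (0.832). Pairs of 1 experiment are not independent, and 5 of the 18 come from experiment 4. Among the members, the paired change of Cd274 had r = 0.827 with that of Lgals9, 0.815 with Cd47, −0.874 with Cd276 and −0.678 with Pvr.

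In the 22 libraries of 4T1 alone, with the mean of the experiment subtracted, other genes were nearest. They were Glipr2 (r = 0.891), Lmo7 (0.864) and Tgm2 (0.860) for Lgals9 and Rtn4 (0.894), Ythdc1 (0.891) and Zrsr2 (0.856) for Cd47. For Pvr they were Rhob (0.825), Slc39a4 (0.794) and Ifi27 (0.780), for Cd276 Mlec (0.839), Abr (0.827) and Ctnnb1 (0.816), and for Cd274 Tango6 (0.769), Nadk2 (0.767) and Vps39 (0.758). These points share substrates and libraries. Between members the highest r was 0.500, for Cd274 with Lgals9, and the lowest was −0.224, for Cd274 with Cd47.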

How the data were processed

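The authors deposited 1 table with a normalised signal for each gene symbol in each library. Per the submitters' processing notes the tools were STAR 2.6, featureCounts (version not given) and edgeR 3.31.7, with the mouse build mm10; annotation, strand setting and options are not given in the sources used here. Per the labels' protocols, TruSeq v2 libraries were sequenced from 1 end for 75 bases. In each library all values are multiples of 1 smallest step (100% within 0.01 of a whole number, largest distance 0.00016), so the deposited signal is read counts over a scaled library size, in reads per mega-read (per M). Of 21349 lines, 1 duplicate of Cd3d and 1 line with a cell that was not a number (Ldha) were dropped, and 19 symbols had turned into dates.

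Genes reaching 1 per M in at least 3 libraries (14701) were tested with limma 3.58.1 (R 4.3.3) after log2(value + 1), as 10 group means over 40 libraries (30 residual degrees of freedom), with Benjamini-Hochberg adjustment over all genes and a threshold of 0.05. Adding 1 pulls in the differences of low genes. edgeR 4.0.16 (quasi-likelihood) on the recovered reads, a block for the experiment, other scalings, pseudocounts and filters, and leaving out libraries or experiments were alternatives; the fit with a T cell effect per experiment, the blocked fits within a condition, the ratio to epithelial genes and the list counts without experiment 4 were chosen after seeing the data. The scripts were tested on simulated data.

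The replicate number marks the experiment, per the labels, and so pairs the wells: deviations from group means correlated with a median r of 0.478 over 156 library pairs sharing a number and −0.131 over 562 others, and the closest library shared the number for 37 of 40. No library was a copy of another (chi-square per degree of freedom 6.52 to 697 in 62 pairs within groups). Replicates are separate experiments. Reads carry no molecular identifiers, so detection limits cover counting error only.

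The members and gene lists were chosen with earlier results of these data known. Genes named from a list are those passing in the mean T cell comparison, up to the 5 largest changes per direction; Pdcd1, Cd200 and Irf2 (each the sixth of its list) and list members that did not pass were named after their values were seen. Likeness names the 3 genes with the highest Pearson r, with no test. Of the genes these rules select, 1 is not reported here. Promoter windows come from RefSeq GRCm38.p6 and exon lengths from GENCODE.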

Additional observations from a re-analysis of the deposited data

Results flagged for a closer look

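Of 40 groups of 4 or 5 libraries tested over the members, 4 held a library far from the others, and chance flags about 1 in 20. Cd274 was 48.1 per M in the collagen IV co-culture of experiment 4 (next highest 2.81 in that group), 11.8 per M in the fibronectin co-culture (next 2.51) and 7.49 per M in the co-culture on uncoated plastic (next 2.87), and Lgals9 was 43.8 per M in the collagen IV co-culture (next 15.9). All 4 libraries are co-cultures of experiment 4.

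The T cell effect in experiment 4 differed from the mean effect in the other experiments by 2.09 ± 0.29 (SE) for Cd274 (limma adjusted p = 3.91e-07), 0.70 ± 0.10 for Lgals9 (6.96e-07), −0.42 ± 0.08 for Cd276 (3.06e-05) and 0.53 ± 0.08 for Cd47 (6.30e-07). For all genes 52.3% differed in this way. In the same libraries T cell genes were highest and epithelial genes lowest, and the library tag differed between the arms; their part in these differences was not tested.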

How the results depend on the processing

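For the mean T cell effect 2 members passed (Cd274 and Cd47). It was 1 with a pseudocount of 4, with quantile normalisation, with scaling to the epithelial genes, without experiment 1 and without experiment 3, each time Cd47. It was 0 without experiment 4, with or without the replicate block, and 4 (Cd274, Pvr, Lgals9 and Cd47) with the block and epithelial scaling, where 64.7% of all genes passed. With no filter it stayed 2, but these were Pdcd1lg2 and Cd47. Leaving out single libraries gave 1 to 3. The Cd274 call was lost in 12 of these 40 fits, among them those without the co-culture of experiment 4 on 4 of the substrates and those without 8 libraries of 4T1 alone, which were experiment 3 on uncoated plastic, fibronectin and both collagens, experiment 2 on both collagens and vitronectin, and experiment 1 on fibronectin (adjusted p 0.0192 to 0.105 over the 40). In edgeR the Cd274 value was 1.51, and 0.89 with the block. Cd47 passed in all 40 (0.00141 to 0.0190).

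The replicate block added Cd276 (−0.16) to the T cell calls. In the fit to 4T1 alone it gave 2 coat calls (Lgals9 on both collagens) where the other fits gave 0. It also gave 2 F test calls over the substrates there (Lgals9 and Cd47) where the fits to all 40 libraries gave 0. With epithelial scaling it added Cd274, Pvr and Lgals9 to the T cell call of Cd47. Without that scaling it changed no other call on the members. Counts on single substrates, for coats in co-culture and for the difference in T cell effect stayed 0 in the settings run. With epithelial scaling Pvr turned to 0.17, Cd276 to 0.032, Lgals3 to 0.029 and Hmgb1 to 0.10, and with the block as well to 0.13, 0.021, 0.050 and 0.10. Without experiment 4 Pvr turned to 0.016, and with the block Lgals9 turned to −0.086. The scaling moves the median of all genes to 0.17, against −0.01. The cause of the other changes was not tested. Over all genes 3710 passed in limma, 6726 with the block, 825 with epithelial scaling, 9518 with both and 430 without experiment 4. Depth limits Pdcd1lg2, Cd80 and Cd86, whose levels in most libraries lie near the 0.0124 to 0.158 per M that a count of 0 allows.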

Other observations

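Tigit, an inhibitory receptor gene of T and NK cells and a partner of CD155, averaged 34.7 ± 3.07 per M (SD, n = 22) in 4T1 alone. In these libraries the 22 T cell genes together summed to 2.94 to 6.14 per M. Its co-culture mean was 32.8 ± 3.47 per M (SD, n = 18). Havcr2, the gene for TIM-3, averaged 2.85 ± 0.89 per M in co-culture and 3.13 ± 0.81 per M in 4T1 alone (SD, n = 18 and 22). The files give a level per gene symbol only, and which transcripts these reads came from was not analysed here.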
